A study of Mus musculus with 10 samples.

Results

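CatSper is the calcium channel of the sperm tail, and it is described here with the potassium and proton transporters that work beside it in sperm, as transcripts of the whole testis. The 10 genes were the pore subunits Catsper1, Catsper2, Catsper3 and Catsper4, the accessory subunits Catsperb, Catsperg1 and Catsperd, the potassium channel gene Kcnu1, the proton channel gene Hvcn1 and the sodium/proton exchanger gene Slc9c1. They were chosen by name, and every non-control probe whose RefSeq accession belonged to 1 of them was taken, which gave 15 probes among 33851 tested and 10 genes among 16735 with a tested probe. The brightest probe stands for a gene, and its other probes are given beside it. All 10 genes passed the filter on dim probes.

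The testes came from C57BL/6N males of 6 weeks (42 days), 1 testis and 1 Agilent array per animal. The 5 R animals were sons of dams held to 50% of the mean daily intake of control dams from 6.5 days post coitum, and after birth they were nursed by foster mothers from the control side. In the C group, 5 animals had freely fed dams that nursed them. Both groups ate regular chow freely after weaning. Fostering went with the prenatal diet, so the 2 cannot be told apart. The labels used here do not name the litters.

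CatSper is assembled late in spermatogenesis, in spermatids, and lies in rows along the principal piece of the tail. It opens as the cell interior turns alkaline and lets in the calcium that drives the hyperactivated beat. Slo3, the product of Kcnu1, is the potassium channel that sets the membrane voltage of mouse sperm, and the exchanger encoded by Slc9c1 moves protons out of the cell. The proton channel encoded by Hvcn1 also lets protons out and is known from human sperm. Whether mouse sperm use it was not tested here. Loss of any pore subunit leaves male mice infertile. In whole testis, fewer cells of a type and less RNA per cell cannot be told apart.

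Levels are given as log2 signal, the log2 of an array's processed intensity minus that array's 75th percentile, and a difference is R minus C on that scale. A call is a Benjamini-Hochberg adjusted p under 0.05 from limma over all 33851 probes. Per array, 54.6% to 65.9% of probes passed the scanner's background test, and saturation did not occur. The 10 arrays lay on 2 slides, 4 R and 2 C on slide 1 and 1 R and 3 C on slide 2. C replicate 2 stood apart on the first principal component, with a score of −123 against −29.5 to −13.9 for the other C arrays. In the authors' deposited table, R replicate 1 was averaged into the control side and C replicate 5 into the test side, against their labels. The labels are followed here, and the calls at Catsperg1, Kcnu1, Hvcn1, the Catsperd probes and the named genes of the wider lists are given without C replicate 2 and without R replicate 1 and C replicate 5 (the regrouped pair). Lists of late spermatocyte, round spermatid and elongating spermatid markers were well above background, while none of the 4 epididymal markers (Crisp1, Lcn5, Adam28 and Defb20) was so on any array. The Sertoli cell marker Amh was also not above background on any array.

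Of the 10 genes, 2 were called higher in R (Catsperg1 and Kcnu1), 1 was called lower (Hvcn1) and 7 did not pass. Over all genes 35.6% were called, 14.9% higher and 20.6% lower, so the 3 calls stand near the share of the whole array. The groups did not overlap at 3 of the 10 genes, against 29.1% of all genes. Catsperg1 and Hvcn1 also met the study's criterion of a fold above 1.5 or under 0.66, which 9.9% of all genes met (4.22% higher and 5.68% lower). Hvcn1 no longer met it with normexp background correction (0.763-fold), without R replicate 4 (0.667-fold) or without C replicate 4 (0.686-fold), and neither gene met it within slide 2 or by the grouping of the authors' deposited table, where neither was called. By probe, 3 of the 15 were called higher and 1 lower, against 38.6% called over all probes (21.4% higher and 17.1% lower). Of the 15 probes, 4 had groups that did not overlap, against 31.4% of all probes, and 2 met the study's criterion, against 15.7% (11% higher and 4.65% lower). The median difference of the 10 genes was 0.10, with 6 positive and 4 negative, beside −0.03 over all genes. With each array's median as reference the median of all genes moved to −0.23, so a difference here is a shift against the array's other probes.

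**Figure D1:**
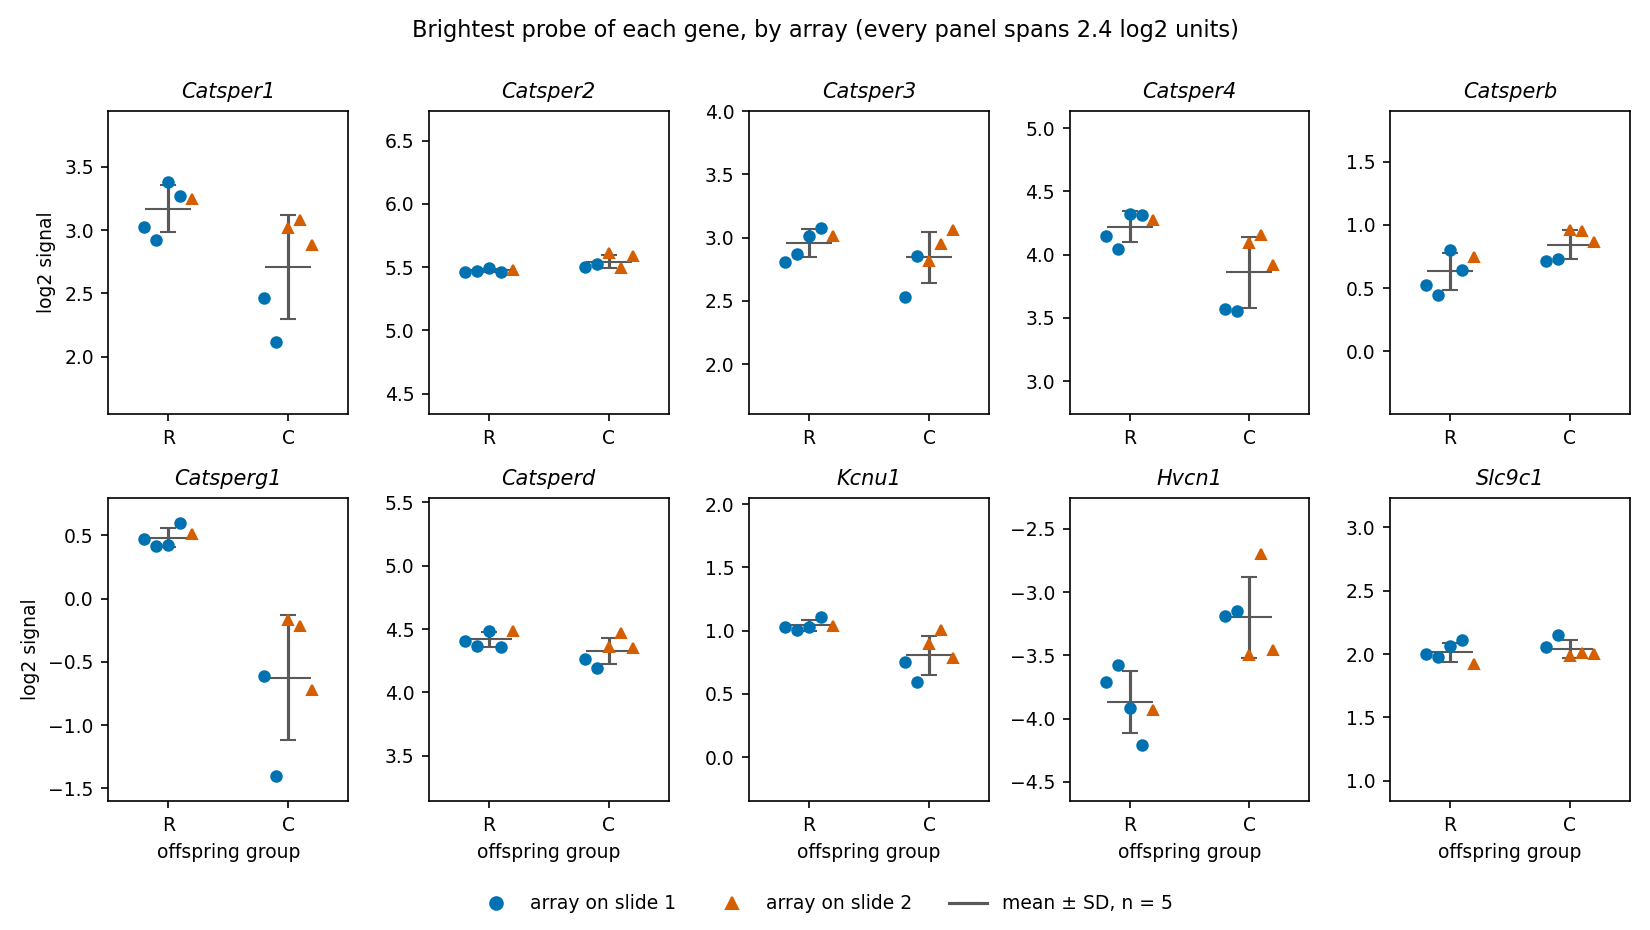
Log2 signal of the brightest probe of each gene on every array, R left and C right, with the slide as colour and shape and with mean ± SD (n = 5 per group). The 5 R points of Catsperg1 lie between 0.41 and 0.60, above all C points, those of Hvcn1 lie below all C points, and the 2 slide 1 arrays of C are the lowest C points for Catsper1, Catsper4, Catsperd and Kcnu1.

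The promoter sequences below are those of Catsperg1, which had the largest difference of the 10 genes, and of Catsperd, whose probes moved unequally. Probes of Catsper3 and Catsper4 moved unequally too, and the windows of these genes are not shown. They are the 250 bases before and 50 after an annotated start in RefSeq, GRCm38.p6, and 7 of the 10 genes had a window. Capitals mark the letters TGACG, the half-site of the cyclic AMP response element read by CREM, an activator of spermatid genes, and AGAACA, the half-site bound by the androgen receptor, or their reverse complements CGTCA and TGTTCT. Both were searched on both strands, and no match of one overlapped the other in these windows. The upstream window of Catsperg1 lies at chr7:29213984-29214283 (minus strand), its second window at chr7:29210876-29211175 (minus strand), and the upstream window of Catsperd at chr17:56626797-56627096 (plus strand).
Catsperg1, upstream start: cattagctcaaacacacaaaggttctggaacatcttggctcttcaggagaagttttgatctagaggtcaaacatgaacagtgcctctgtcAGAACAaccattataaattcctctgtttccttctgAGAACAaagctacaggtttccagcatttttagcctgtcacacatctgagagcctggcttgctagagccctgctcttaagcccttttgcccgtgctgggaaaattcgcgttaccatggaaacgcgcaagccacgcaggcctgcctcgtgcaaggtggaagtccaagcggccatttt
Catsperg1, second start: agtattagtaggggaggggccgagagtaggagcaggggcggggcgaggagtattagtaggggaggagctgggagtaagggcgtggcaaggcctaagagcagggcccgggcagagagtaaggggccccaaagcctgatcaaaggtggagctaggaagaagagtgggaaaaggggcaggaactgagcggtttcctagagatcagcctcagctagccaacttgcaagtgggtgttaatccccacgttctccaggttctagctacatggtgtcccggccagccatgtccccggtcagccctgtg
Catsperd, upstream start: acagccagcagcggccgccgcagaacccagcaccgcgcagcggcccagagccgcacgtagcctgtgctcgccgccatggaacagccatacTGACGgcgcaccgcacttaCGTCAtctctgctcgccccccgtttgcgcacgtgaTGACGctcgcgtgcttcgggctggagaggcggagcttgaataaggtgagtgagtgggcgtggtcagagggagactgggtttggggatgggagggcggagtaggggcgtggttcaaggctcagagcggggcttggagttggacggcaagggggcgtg
The upstream window of Catsperg1 held AGAACA at 2 places, beginning at positions −160 and −125 from the start, and its second window held neither motif. The upstream window of Catsperd held TGACG at 3 places, beginning at −160, −141 (on the opposite strand) and −106. Its second window, not shown, held neither motif, and neither did the windows of Catsper3 and Catsper4. Of the 9 windows of the 10 genes, 2 held TGACG (those of Catsper2 and Catsperd) and 2 held AGAACA (those of Catsperb and Catsperg1), against 20.8% and 19% of all 32851 windows. CpG pairs numbered 41 in the Catsper2 window and 29 in the upstream Catsperd window, beside 1 to 12 in the other 7 windows and a median of 7 over all windows. A match of letters is a description of the window and not a bound site.

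Of the pore subunits, none of the 4 was called. Catsper1 encodes the subunit with a histidine-rich end in the cytoplasm. Its log2 signal was 3.03, 2.92, 3.38, 3.27 and 3.25 on the R arrays and 2.46, 2.11, 3.01, 3.08 and 2.88 on the C arrays. The groups overlapped, and C replicates 1 and 2, the C arrays of slide 1, were the lowest of all 10. The difference was 0.46 ± 0.19 (SE), or 1.37-fold higher (95% interval 1.03 to 1.83, n = 5 per group, limma adjusted p = 0.0715). A slide block gave 0.64, which was called (adjusted p = 0.00892), and it was 0.86 within slide 1 (adjusted p = 0.0177) and 0.26 within slide 2 (adjusted p = 0.266), which holds 1 R array. Without C replicate 4 it was also called (0.55, adjusted p = 0.0412), and without C replicate 2 it was 0.31 (adjusted p = 0.110).

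Catsper4, another pore subunit, followed the same order of arrays. Its signal was 4.15, 4.05, 4.32, 4.31 and 4.27 on the R arrays and 3.57, 3.55, 4.09, 4.16 and 3.92 on the C arrays. C replicates 1 and 2 were again lowest, while C replicates 3 and 4 lay within the R range. The difference of 0.36 ± 0.13 (SE) was 1.29-fold (95% interval 1.05 to 1.57) and missed the threshold at an adjusted p of 0.0503 by limma (n = 5 per group). It passed with slide in the fit (0.49, adjusted p = 0.00676) and within slide 1 (0.65, adjusted p = 0.0147). It also passed without C replicate 3 (0.42, adjusted p = 0.0364) or C replicate 4 (0.44, adjusted p = 0.0249), and within slide 2 it was 0.22. With each array's median as reference it was 0.16 (adjusted p = 0.300).

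The second Catsper4 probe, annotated to the transcript NM_001130030, did not move with the first. It read −0.56, −0.57, −0.26, −0.43 and −0.30 on the R arrays and −0.70, −0.65, −0.25, −0.06 and −0.03 on the C arrays. The groups overlapped over most of their range, and the difference was −0.09 ± 0.15 (SE, adjusted p = 0.652). Within an array, the log2 ratio of the brightest to the second probe was higher in R by 0.45 ± 0.08 (SE, adjusted p = 0.00498 by limma over all 17115 such probe pairs), and the groups did not overlap in it. Of all pairs, 14% were called higher for the brightest probe and 15.3% lower. That ratio does not depend on scaling by 1 constant per array, and it shows that the probes changed unequally.

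Catsper3 was near level at its brightest probe. The R arrays read 2.81, 2.87, 3.01, 3.08 and 3.01 and the C arrays 2.53, 2.86, 2.82, 2.95 and 3.06, so that 4 of the 5 C values fell within the R range. The difference was 0.11 ± 0.10 (SE), with a 95% interval of −0.11 to 0.34 (adjusted p = 0.387). Its other probe, of the same accession, read −1.10, −0.98, −0.80, −0.97 and −0.90 in R and −0.999, −0.61, −0.82, −0.74 and −0.20 in C, a difference of −0.28 ± 0.14 (SE, adjusted p = 0.127). C replicate 5 was the highest array at both probes among the C arrays. The log2 ratio of both probes was higher in R by 0.39 ± 0.09 (SE, adjusted p = 0.0146 by limma over all pairs). The brightest Catsper3 probe was the 1 probe of the 15 in the authors' deposited table of 2266 probes, with a log2 ratio of 0.25, a p of 0.0155 and a q of 0.515 in the authors' deposited table under its own grouping of the arrays.

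Catsper2 had the narrowest spread of the 10 genes. Its R arrays read 5.46, 5.47, 5.50, 5.46 and 5.48, and its C arrays read 5.50, 5.53, 5.61, 5.49 and 5.58. The groups met only at R replicate 3, which lay just above C replicate 4. The difference was −0.07 ± 0.05 (SE), with a 95% interval of −0.19 to 0.05 (adjusted p = 0.309). With each array's median as reference it was −0.28 and called (adjusted p = 0.0218), close to the −0.23 of all genes under that reference.

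The accessory subunits differed among themselves. Catsperg1 encodes CatSper gamma, a subunit with a large part outside the cell. Its log2 signal was 0.47, 0.41, 0.42, 0.60 and 0.51 on the R arrays and −0.61, −1.40, −0.17, −0.21 and −0.72 on the C arrays. All R arrays lay above all C arrays, and the SD was 0.08 in R and 0.50 in C. Catsperg1 rose 2.15-fold (95% interval 1.57 to 2.95, n = 5 per group, limma adjusted p = 0.00420), a difference of 1.11 ± 0.20 (SE). It was larger in size than that of 98.9% of genes, each by its brightest probe. Other probes were left out of that rank. The study's criterion was met, higher in R, by 4.22% of genes at the brightest probe and by 11% of all probes. The Catsperg1 difference was 0.91 without C replicate 2 (adjusted p = 7.8e-04) and 1.08 without R replicate 1 and C replicate 5 (adjusted p = 0.0303). Within slide 1 it was 1.48 (adjusted p = 0.0132), and within slide 2, with 1 R array, it was 0.88 and not called (adjusted p = 0.152).

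Catsperg1 has a close relative, Catsperg2, and probes of such a pair can share signal. The dimmer Catsperg2 probe read 0.48, 0.29, 0.37, 0.48 and 0.50 in R and −0.59, −1.49, −0.38, −0.29 and −0.84 in C. Its largest gap from the Catsperg1 probe on any array was 0.20. The R minus C difference of this dimmer probe was 1.14 ± 0.20 (SE, adjusted p = 0.00354), and it was called without C replicate 2 (adjusted p = 5.6e-04) and without the regrouped pair (adjusted p = 0.0283). Both probes gave the same picture. Whether they share signal was not tested, so they are not counted as separate evidence. The brightest Catsperg2 probe read 4.07, 3.77, 4.15, 4.15 and 4.16 in R and 3.68, 3.40, 4.01, 4.09 and 3.89 in C, with overlapping groups and a difference of 0.24 ± 0.14 (SE, adjusted p = 0.170). The value of Catsperg1 is uncertain for this reason, since which of both genes its probe reported was not tested.

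**Figure D2:**
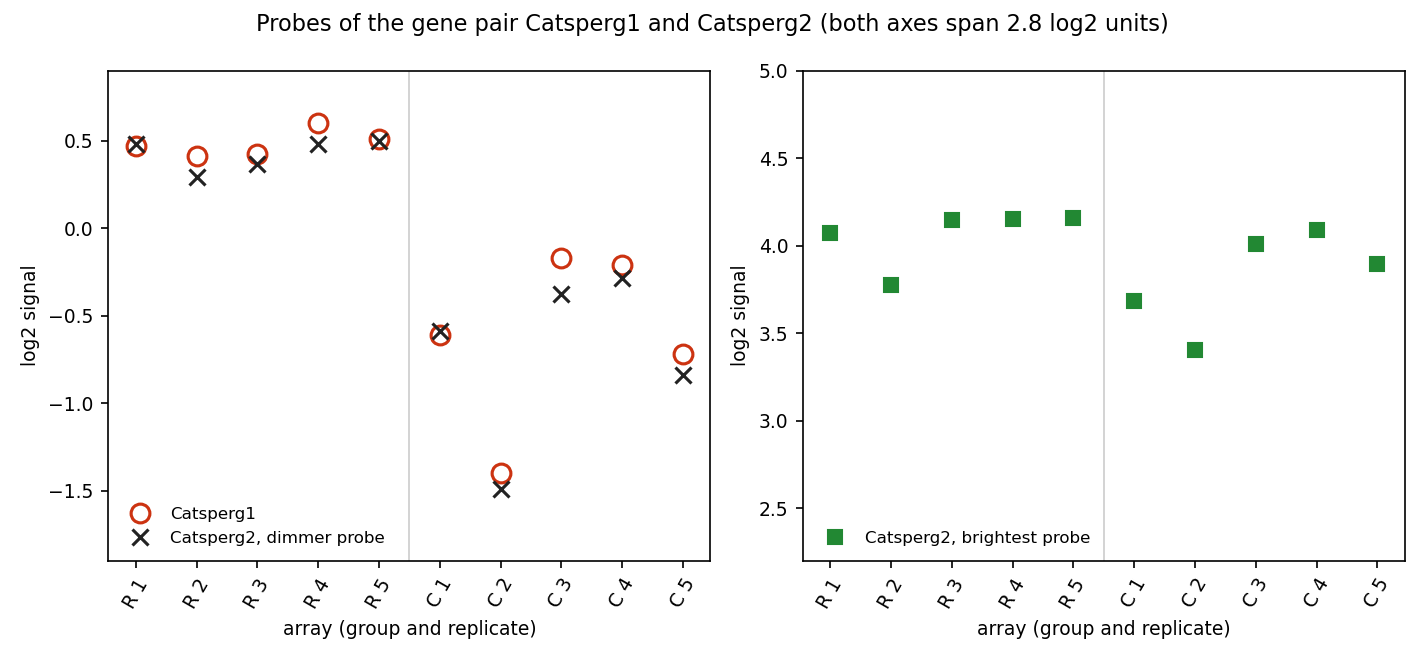
Log2 signal on each array, R arrays left of the line and C arrays right, for the Catsperg1 probe and the dimmer Catsperg2 probe (left panel) and for the brightest Catsperg2 probe (right panel). The largest gap between the first 2 probes is 0.20 over the 10 arrays. At both of them the R arrays lie above the C arrays, while the groups overlap at the brightest Catsperg2 probe.

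Catsperb encodes CatSper beta, another subunit with a large part outside the cell. It read 0.52, 0.45, 0.80, 0.64 and 0.75 on the R arrays and 0.72, 0.73, 0.96, 0.95 and 0.86 on the C arrays. R replicates 3 and 5 lay inside the C range and the other 3 R arrays below it. The difference was −0.21 ± 0.09 (SE, adjusted p = 0.0794), opposite in sign to that of Catsperg1. It was called lower with each array's median as reference (−0.42, adjusted p = 0.00897) and with array weights (−0.29, adjusted p = 0.0102), and it was −0.12 within slide 1 and −0.18 within slide 2.

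Catsperd encodes CatSper delta, without which mouse sperm lack a working channel. Its brightest probe read 4.41, 4.36, 4.48, 4.36 and 4.48 in R and 4.26, 4.20, 4.35, 4.47 and 4.35 in C, a difference of 0.09 ± 0.07 (SE, adjusted p = 0.290). Groups overlapped through C replicate 4, which lay among the upper R arrays. The second probe read −0.08, 0.02, 0.20, 0.10 and 0.15 in R and −0.18, −0.41, −0.09, 0.04 and −0.11 in C (difference 0.23 ± 0.09, SE, adjusted p = 0.0702). At the third probe the R arrays, at −1.13, −1.24, −1.15, −1.16 and −0.94, all lay above the C arrays, at −1.62, −1.88, −1.57, −1.30 and −1.46. That probe rose 1.36-fold (95% interval 1.15 to 1.60, n = 5 per group, limma adjusted p = 0.0113). Its difference of 0.44 was 0.36 without C replicate 2 (adjusted p = 0.00901), 0.47 without R replicate 1 and C replicate 5 (adjusted p = 0.0447) and 0.24, not called, with each array's median as reference (adjusted p = 0.0566). All 3 probes carry the accession NM_175350. The log2 ratio of the brightest to the third probe was lower in R, with a difference of −0.35 ± 0.08 (SE, adjusted p = 0.0103), and that of the brightest to the second was not called (−0.14, adjusted p = 0.155). Over the mean of its 3 probes Catsperd was called higher, at 0.25 (adjusted p = 0.0337).

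A further probe lay outside the rule, because its accession, AK014981, is a testis cDNA that the gene table used did not hold. The authors' deposited table names it Catsperd, with a log2 ratio of 0.72, a p of 0.0347 and a q of 0.515 in the authors' deposited table. It read −2.05, −1.47, −2.14, −2.05 and −1.99 in R and −3.01, −3.18, −2.62, −2.81 and −2.49 in C under the labels. All R arrays lay above all C arrays, and the signal rose 1.85-fold (95% interval 1.44 to 2.37, n = 5 per group, limma adjusted p = 0.00397). The difference of 0.89 was 0.79 without C replicate 2 (adjusted p = 0.00384), larger without R replicate 1 and C replicate 5 (0.997, adjusted p = 0.0194), and 0.59 with normexp background correction (adjusted p = 0.00269). Which transcript of the Catsperd locus it reports was not tested.

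**Figure D3:**
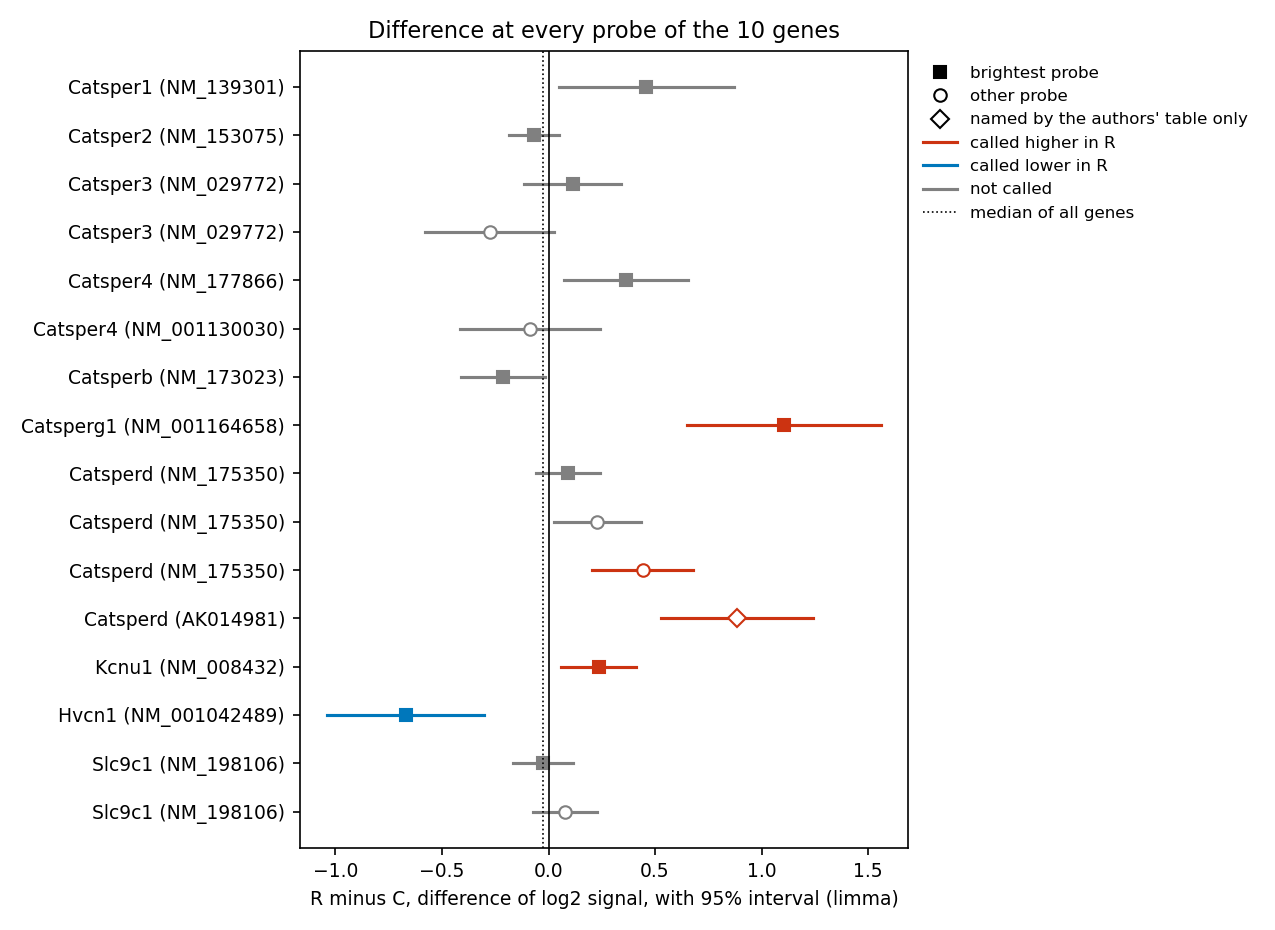
R minus C difference of log2 signal with its 95% interval for each of the 15 probes and for the AK014981 probe, labelled with gene and accession. Catsperg1, Kcnu1, 1 of 3 Catsperd probes and the AK014981 probe were called higher and Hvcn1 lower, while the paired probes of Catsper3 and of Catsper4 lie on opposite sides of 0.

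Kcnu1 was called higher by a small margin. Its R arrays read 1.03, 1.005, 1.03, 1.11 and 1.04 and its C arrays 0.75, 0.59, 0.90, 1.002 and 0.79. The R arrays were tightly grouped and all lay above the C arrays, with C replicate 4 just under the lowest of them. The rise was 1.18-fold (95% interval 1.04 to 1.33, n = 5 per group, limma adjusted p = 0.0401), a difference of 0.24 ± 0.08 (SE). The call was lost when any 1 of 7 arrays was left out (R replicates 1 to 5, C replicate 1 or C replicate 5, adjusted p up to 0.0890), and without R replicate 1 and C replicate 5 together (0.23, adjusted p = 0.121). It held without C replicate 2 (0.18, adjusted p = 0.0493). With each array's median as reference the difference was 0.029 (adjusted p = 0.779), and it was 0.37 within slide 1 and 0.14 within slide 2. Lrrc52, the partner subunit of Slo3, read −0.998, −1.35, −0.76, −1.06 and −0.86 in R and −1.30, −1.43, −0.94, −0.83 and −0.67 in C, with groups that overlapped almost entirely and a difference of 0.03 ± 0.16 (SE, adjusted p = 0.906).

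Hvcn1 moved the other way. It encodes the voltage-gated proton channel, known from human sperm and from leukocytes. The R arrays read −3.71, −3.57, −3.92, −4.21 and −3.93 and the C arrays −3.19, −3.15, −3.50, −2.70 and −3.46. All R arrays lay below all C arrays, and the probe was well above background on 4 of 5 R arrays (not on R replicate 4) and on all 5 C arrays. Hvcn1 was 1.59-fold lower (95% interval 1.23 to 2.05, n = 5 per group, limma adjusted p = 0.0126), a difference of −0.67 ± 0.17 (SE). With normexp background correction it was called at a smaller −0.39, or 1.31-fold lower (adjusted p = 0.0146). It kept its call when any 1 array was left out (−0.74 to −0.54, adjusted p up to 0.0314), with each array's median as reference (−0.88, adjusted p = 0.00529), without C replicate 2 (−0.66, adjusted p = 0.0191) and without R replicate 1 and C replicate 5 (−0.77, adjusted p = 0.0335). The difference was −0.68 within slide 1 (adjusted p = 0.0336) and −0.71 within slide 2 (adjusted p = 0.297). Beside it, 4 of 7 macrophage markers were called lower and 0 higher (median −0.58), with mean list levels of −1.92 to −1.23 in R and −1.38 to −0.72 in C, where 20.6% of all genes were lower. Of 9 lymphocyte and granulocyte markers only 4 were bright enough to test, of which 1 was lower and 0 higher (median 0.09), with mean levels of −3.94 to −3.22 in R and −3.94 to −3.55 in C. Cd79a, Ly6g, S100a8 and S100a9 were not well above background on any array. Lists of other cell markers differed in direction. Of 6 Sertoli cell markers 5 were called lower and 0 higher (median −0.48, mean levels of 1.49 to 1.76 in R and 1.67 to 2.54 in C), and of 5 spermatogonial markers 3 were lower and 1 higher (median −0.34, mean levels of −0.97 to −0.81 in R and −0.68 to −0.30 in C). Of 6 Leydig cell markers 1 was lower and 0 higher (median −0.26, mean levels of 0.10 to 0.67 in R and 0.16 to 1.06 in C), and all 6 differences were negative. Of 5 endothelial markers 2 were higher and 0 lower (median 0.45), where 14.9% of all genes were higher. Their mean levels were −2.60 to −2.43 in R and −3.29 to −2.73 in C. Of 4 peritubular myoid markers 1 was higher and 0 lower (median 0.06), with mean levels of 0.83 to 1.28 in R and 0.65 to 1.12 in C. The part of any of these cells in the Hvcn1 difference was not tested.

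Slc9c1, the sperm exchanger whose loss in mice abolishes motility, was level. Its R arrays read 2.002, 1.98, 2.06, 2.11 and 1.92 and its C arrays 2.05, 2.15, 1.98, 2.01 and 2.004, with overlapping groups. The difference was −0.03 ± 0.06 (SE), with a 95% interval of −0.16 to 0.11 (adjusted p = 0.764). The second probe gave 0.08 ± 0.07 (SE, adjusted p = 0.377). Their ratio was not called (−0.10, adjusted p = 0.427), and with the slide as a block it was called at −0.21 (adjusted p = 0.0298).

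The order of arrays within C was shared by several genes. C replicate 2 had the lowest value of all 10 arrays at 5 of the 10 genes and the highest at 1 (Slc9c1). Its fellow C array on slide 1, C replicate 1, was lowest at 1 gene, Catsper3. Among the R arrays, R replicate 2 was lowest of its group at 5 genes, and R replicates 3 and 4 were highest at 4 each. The SD was smaller over R than over C at every gene but Catsperb and Slc9c1, as at Catsper1, with 0.19 in R and 0.41 in C. How often these orders and spreads occur over all genes was not counted. C replicate 2 stood apart over all tested probes as well (first component score −123), so they are not traits particular to the 10 genes.

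**Figure D4:**
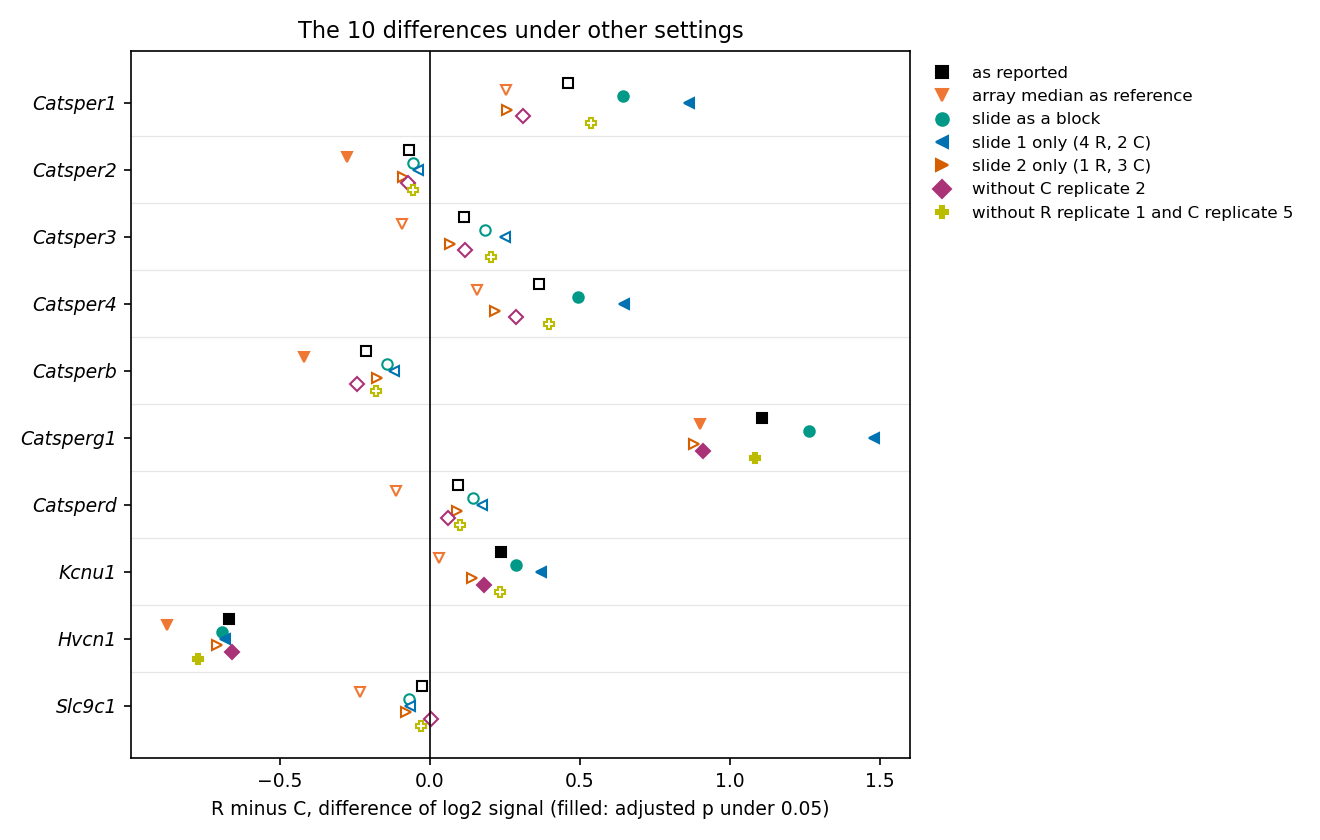
R minus C difference of each of the 10 genes as reported and under 6 other settings, filled where the adjusted p was under 0.05. In these settings Catsperg1 lies between 0.88 and 1.48 and Hvcn1 between −0.88 and −0.66 (settings not drawn gave 0.63 for Catsperg1 by the authors' grouping, and −0.39 with normexp and −0.54 without C replicate 4 for Hvcn1), while Kcnu1 moves to 0.03 with each array's median as reference and Catsper1 and Catsper4 are called within slide 1 and with the slide as a block.

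Of 9 further genes of the channel complex, 8 had a probe and were tested, and 2 were called higher, 1 lower and 5 not (median 0.12), beside 14.9% higher and 20.6% lower over all genes. The called share is near that of all genes. Catspere2, for CatSper epsilon, read 0.37, 0.12, 0.07, 0.14 and 0.24 in R and −0.13, −0.32, −0.26, −0.31 and −0.27 in C, without overlap, and rose 1.36-fold (95% interval 1.22 to 1.52, adjusted p = 0.00290). It was also called without C replicate 2 (1.35-fold, adjusted p = 0.00242) and without R replicate 1 and C replicate 5 (1.32-fold, adjusted p = 0.0233). With each array's median as reference it was 1.18-fold and only just called (limma adjusted p = 0.0479). Its relative Catspere1 rose 1.16-fold (adjusted p = 0.0386) with overlapping groups, and probes of these 2 genes may share signal. Catspere1 kept its call without C replicate 2 (1.18-fold, adjusted p = 0.0280) and lost it without the regrouped pair (1.13-fold, adjusted p = 0.164) or with the array median as reference (1.01-fold, adjusted p = 0.950). Slco6c1, a transporter found in the mouse channel complex, read 1.92, 1.94, 2.02, 2.05 and 1.99 in R and 2.15, 2.37, 2.14, 2.19 and 2.28 in C, without overlap. It fell, with a difference of −0.24 ± 0.07 (SE, adjusted p = 0.0170), was −0.21 without C replicate 2 (adjusted p = 0.0165) and was −0.21 and not called without the regrouped pair (adjusted p = 0.0878). Efcab9 and Catsperz, which encode the pair that links the channel to calcium and pH, did not pass, with differences of −0.06 ± 0.08 (SE, adjusted p = 0.537) and −0.06 ± 0.06 (SE, adjusted p = 0.398).

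Of 22 genes of sperm ion balance, pH and capacitation, 20 were tested, and 4 were called higher and 0 lower (median 0.17, with 17 of 20 positive), beside 14.9% higher, 20.6% lower and 47% positive over all genes. The higher count was 2 when R replicates 1 to 5, C replicate 1 or C replicate 5 were left out singly, and 1 under median scaling or without R replicate 1 and C replicate 5. The count of 17 positive depends on the reference as well. With each array's median as reference the median of all genes was −0.23, beside −0.03 as reported. That reference lowers the differences of this list too, as at the brightest Slc9b1 probe (0.33 to 0.12). Signs under it were not counted. Slc9b2 and Slc26a3 were not well above background on any array. Atp2b4, the calcium pump of the sperm membrane, read −2.21, −2.08, −2.59, −2.38 and −2.38 in R and −2.90, −2.82, −2.92, −3.00 and −3.18 in C, without overlap. It rose 1.56-fold (95% interval 1.32 to 1.83, n = 5 per group, limma adjusted p = 0.00297), and its second probe rose 1.78-fold, or 1.37-fold with normexp. Atp2b4 was called without C replicate 2 (1.60-fold, adjusted p = 0.00174) and without the regrouped pair (1.47-fold, adjusted p = 0.0242). With each array's median as reference it was called at 1.35-fold (limma adjusted p = 0.0266). Slc9b1, a sodium/proton exchanger of sperm, rose 1.25-fold (adjusted p = 0.00915), though only 1 of its 3 other probes was called. It was called without C replicate 2 (1.21-fold, adjusted p = 0.00569) and not without the regrouped pair (1.23-fold, adjusted p = 0.0555) or with each array's median as reference (1.09-fold, adjusted p = 0.203). The sperm sodium pump Atp1a4 rose 1.28-fold (adjusted p = 0.0426) and the anion transporter Slc26a8 1.45-fold (adjusted p = 0.0326), both without overlap and with C replicate 2 lowest. Without that array Atp1a4 was 1.19-fold (adjusted p = 0.0295) and Slc26a8 1.29-fold (adjusted p = 0.0182), both called. Neither was called without R replicate 1 and C replicate 5 (1.25-fold, adjusted p = 0.146, and 1.49-fold, adjusted p = 0.0810) or with each array's median as reference (1.11-fold, adjusted p = 0.208, and 1.25-fold, adjusted p = 0.0682). Adcy10, the soluble adenylyl cyclase that responds to bicarbonate, read 4.83, 4.83, 5.02, 4.95 and 4.89 in R and 4.65, 4.28, 4.80, 4.81 and 4.61 in C. Its groups did not overlap, but the difference of 0.28 ± 0.10 (SE) missed the threshold (adjusted p = 0.0539), while its other probe rose 1.67-fold (adjusted p = 0.00443), or 1.54-fold without C replicate 2 and 1.65-fold without the regrouped pair, both called.

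Markers of the germ cell stages that make these transcripts had differences of both signs, and those called were all lower. Of 6 round spermatid markers 0 were called (median −0.07), of 8 elongating spermatid markers 0 were higher and 2 lower (median 0.01), and of 5 late spermatocyte markers 0 were higher and 1 lower (median 0.02), beside 14.9% higher and 20.6% lower over all genes. Oaz3 (−0.37) and Odf1 (−0.32), genes of elongating spermatids, and Pgk2 (−0.20), a kinase gene of late spermatocytes and spermatids, were the 3 called lower by limma (adjusted p = 0.00627, 0.0327 and 0.0364), named here after their values were seen. These differences are of the size of several in the 10 genes. The mean level of the elongating list ran over 6.80 to 6.98 in R and 6.84 to 7.09 in C, and that of the round list over 3.60 to 3.87 in R and 3.56 to 3.97 in C.

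**Figure D5:**
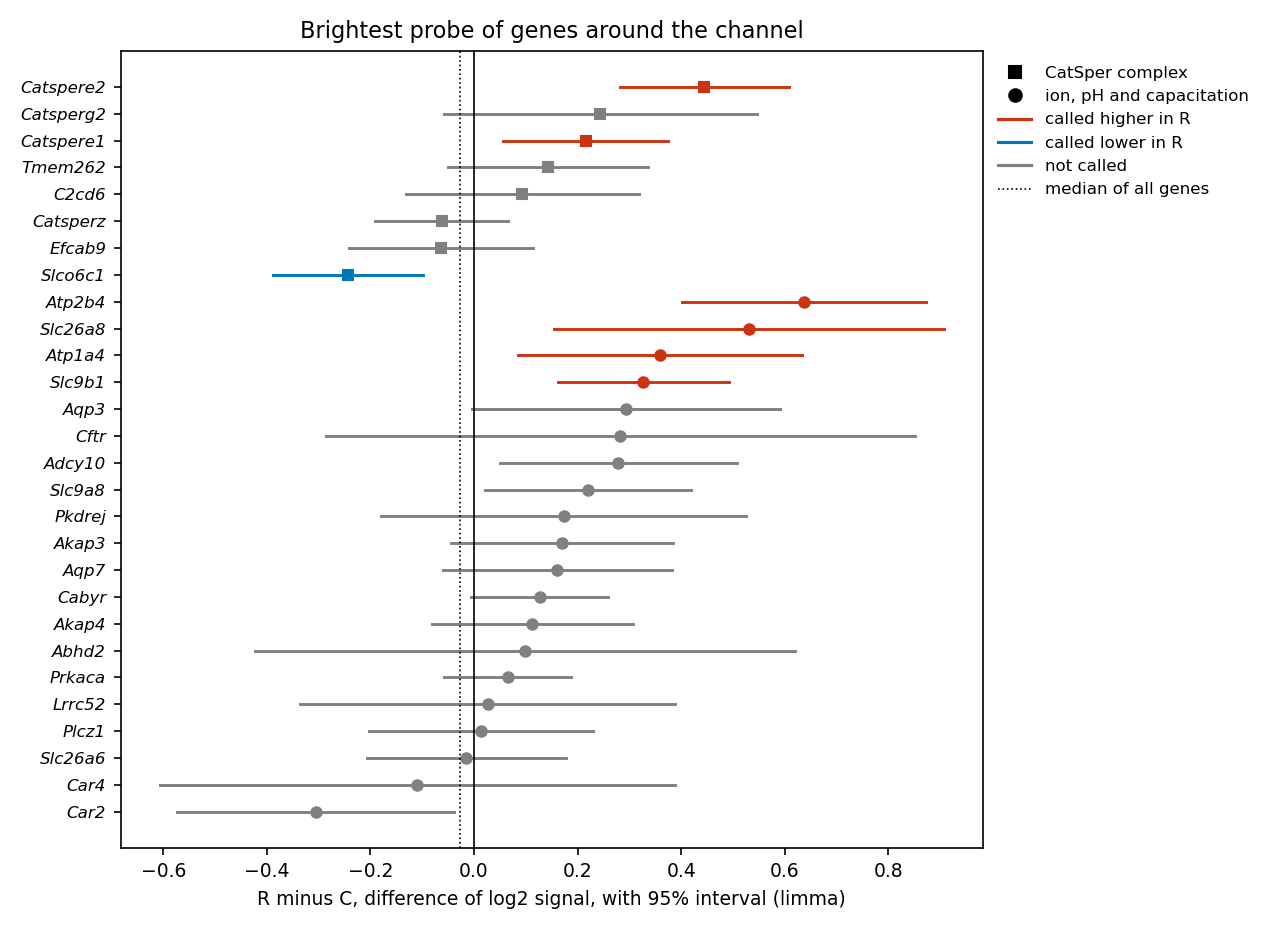
R minus C difference of log2 signal with its 95% interval at the brightest probe of 8 further CatSper complex genes (squares) and 20 genes of ion balance, pH and capacitation (circles). In all 6 were called higher and 1 lower. Over all genes 14.9% were called higher and 20.6% lower, and 47% were positive. With the reported reference 17 of the 20 circles lie right of 0, and that count depends on the reference.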

How the data were processed

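The authors deposited the scanner intensity of each spot, produced by Agilent Feature Extraction (version 12.0.3.1 in the submitters' processing notes). Background and spatial trend had been removed from the processed intensity on each array, per the file headers, without normalisation across arrays. The authors also deposited a table of 2266 probes with scaled intensity values (1 constant per array), a log2 ratio, a p-value and a q-value, and 10 further per-sample columns of it were not used. Flags for background, saturation and outlier spots, of the kind other, came from the same deposited files.

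Control and outlier spots were left out, spots of a probe were averaged as log2 values, and each array's 75th percentile was subtracted. A probe was tested if 5 or more of the 10 arrays flagged it well above background (33851 of 56605, after 2 with a missing value were dropped). The fit used limma 3.58.1 (R 4.3.3, lmFit and eBayes, 2-sided, Benjamini-Hochberg over all probes). Within-gene probe differences were fitted the same way over all pairs. Accessions were matched to RefSeq genes of GRCm38.p6, while the headers name mm9, so probe positions are not given. Members, lists and alternatives were chosen with earlier results of these data known. All 10 genes are described, with Lrrc52, Efcab9, Catsperz and Adcy10 whatever their values and, of the 2 wider lists, up to 4 called genes per direction by smallest p. Catsperg2 and the AK014981 probe were added after their values were seen. P-values treat the 10 animals as independent, and the number of arrays limits the precision. On simulated data of 33851 probes, with 100 changed per fold, the fit recovered 73% of simulated 2-fold changes and 92% of 4-fold changes. Of 33651 unchanged probes, 12 were called. The simulated noise was independent between probes and arrays. Shifts shared by the probes of an array or slide were left out, so these counts do not measure calls that such shifts cause.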

Additional observations from a re-analysis of the deposited data

How the results depend on the processing

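No paired analysis was possible because replicate numbers were given in accession order and pair no animals. With the median as reference, differences were −0.28 for Catsper2 (called), −0.093 for Catsper3 and −0.11 for Catsperd (both of the other sign, not called), −0.42 for Catsperb (called) and 0.029 for Kcnu1 (not called). Over the mean of a gene's probes Catsper3 was −0.081, Catsperd 0.25 and Slc9c1 0.026. The slide as a block gave 0.64 for Catsper1, 0.49 for Catsper4 and −0.21 for the Slc9c1 probe pair, and slide 1 alone gave 0.86 for Catsper1 and 0.65 for Catsper4, all called. Within slide 2, with 1 R array, Catsperg1 was 0.88, Kcnu1 0.14 and Hvcn1 −0.71, and by the grouping of the authors' deposited table Catsperg1 was 0.63, Kcnu1 0.14 and Hvcn1 −0.57, none called by limma (over all probes 0 calls each, with 8750 and 2567 probes at an unadjusted p under 0.05). Catsper4 was called with the authors' scaling constants (0.43), with probes above background on all arrays (0.36) and with a trended variance (0.36). With array weights Catsperb was −0.29 (called), Kcnu1 0.15 (not called) and Slc9c1 0.021, and Slc9c1 was 0.037 with the authors' constants. Kcnu1 was not called with no filter on dim probes (0.24) or without the 2 arrays grouped otherwise (0.23). Hvcn1 was −0.39 with normexp, still called but below the study's fold criterion, and has no value with probes above background on all arrays.

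The counts below were reported as 2 higher and 1 lower of the 10 genes. Higher calls became 1 with the median, no filter, array weights or without the 2 arrays, 4 with the slide block or slide 1, and 0 with slide 2 or the authors' grouping. Lower calls became 3 with the median, 2 with array weights, and 0 with the all-array filter, slide 2 or the authors' grouping. For the further complex genes (2 and 1), higher calls were 1 with the median, quantile normalisation, normexp, no filter or without the 2 arrays, and 0 with slide 2 or the authors' grouping. Their lower calls were 2 with the median and 0 with no filter, either slide alone, the authors' grouping or without the 2 arrays. For the ion balance list (4 and 0), higher calls were 1 with the median or without the 2 arrays, 2 with no filter, 7 with the mean of probes, the block or slide 1, and 0 with slide 2 or the authors' grouping, and lower calls were 1 with the median, the block or slide 1. Over all probes (7261 higher, 5798 lower), the median gave 4029 and 10568, and leaving out the 2 arrays 3187 and 2929.

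Leaving out each array in turn gave differences of 0.31 to 0.55 for Catsper1, −0.08 to −0.05 for Catsper2, 0.03 to 0.17 for Catsper3, 0.29 to 0.44 for Catsper4, −0.26 to −0.17 for Catsperb, 0.91 to 1.22 for Catsperg1, 0.06 to 0.13 for Catsperd, 0.18 to 0.28 for Kcnu1, −0.74 to −0.54 for Hvcn1 and −0.050 to 0.0032 for Slc9c1, which changed sign without C replicate 2. Probe pairs ran over 0.32 to 0.43 for Catsper3, 0.39 to 0.48 for Catsper4, −0.17 to −0.10 and −0.38 to −0.30 for Catsperd and −0.14 to −0.04 for Slc9c1. Counts ran over 1 to 4 higher and 1 lower of the 10 genes, 1 to 2 higher and 1 lower of the complex list, 2 to 6 higher and 0 to 1 lower of the ion balance list, and 4949 to 7446 probes higher and 4154 to 6104 lower. The normexp setting used median spot signals. The causes of these shifts were not tested. With 5 arrays per group, small differences such as that of Kcnu1 lie at the limit of detection, and Hvcn1 lies close to background.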
